A study of Mus musculus with 6 samples.

Results

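The 45 genes described here encode the core machinery of DNA replication, from the proteins that mark origins to the enzymes that join finished strands. They were measured in MIN6 cells, which come from a mouse insulinoma and make insulin, after an siRNA against Hlxb9 and after a scrambled negative control siRNA. Hlxb9 is the older name of Mnx1, a homeobox transcription factor of beta cells and motor neurons. A gene entered through probe sets of an Affymetrix mouse array that the platform annotation assigns to its symbol alone, and it was read on the probe set with the highest mean over the 6 arrays. All 45 of the 45 listed genes were found, with 100 probe sets in all, among 18193 genes and 45037 probe sets tested.

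The groups are MIN6 cells with Hlxb9 siRNA (3 arrays) and MIN6 cells with control siRNA (3 arrays). In both, siRNA was delivered by nucleofection and a lipid reagent, and RNA was taken 72 hours later. Transfections went on to arrays only where a western blot showed Hlxb9 protein lower by more than 75%, so this selection preceded the arrays. The cells are a single tumour line that divides in culture, which limits what they show of beta cells in the islet. The labels also call the samples sorted subpopulations without naming a gate.

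Replication starts where the origin recognition complex binds DNA and, with Cdc6 and Cdt1, loads the Mcm2-7 ring, the inactive form of the helicase. In S phase, Cdc45 and the GINS complex join the ring and turn it into a working helicase, and DNA polymerases with their clamp then copy both strands. Many of these genes are targets of E2F factors, which bind promoters of S phase genes and are held back by the retinoblastoma protein in resting cells. Adult beta cells divide rarely, whereas an insulinoma line such as MIN6 grows continuously.

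E2F motifs were looked for in the promoters of the members, and most members with a promoter in the table held none. In the RefSeq promoter table (build GRCm38.p6, 250 bases before and 50 after each start), 37 members matched by symbol, with 45 promoters. The E2F motifs searched were TTTCCCGC, TTTCGCGC, TTTGCCGC and TTTGGCGC, on both strands, and occurrences may overlap each other. At least 1 motif lay in a promoter of 15 of the 37 members (40.5%), against 704 of all 27025 genes in the table (2.6%) and 550 of the 14452 of them that are measured on the array (3.81%). Counted by promoter, 15 of 45 (33.3%) held a motif, against 744 of 32851 (2.26%). The median GC content was 60% in member promoters and 58.3% in promoters of the measured genes. Motifs were found for 4 of 5 Mcm2-7 genes, both licensing factors, 4 of 7 polymerase and primase genes and 0 of 7 genes of replication protein A and nucleotide supply. TTTGCCGC was found in none of the member promoters.

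The promoters shown are those of the Mcm2-7 genes with a motif, together with those of Orc3 and Rfc3, the members with the highest differences in the origin recognition complex and the clamp loader. Capitals mark motif letters on either strand, and each line runs 5′ to 3′ on the gene's strand. The windows lie at chr1:20820263-20820562 on the minus strand for Mcm3, chr8:75109259-75109558 on the plus strand for Mcm5, chr1:128359656-128359955 on the minus strand for Mcm6, chr5:138171834-138172133 on the minus strand for Mcm7, chr4:34614893-34615192 on the minus strand for Orc3 and chr5:151651159-151651458 on the minus strand for Rfc3.
Mcm3: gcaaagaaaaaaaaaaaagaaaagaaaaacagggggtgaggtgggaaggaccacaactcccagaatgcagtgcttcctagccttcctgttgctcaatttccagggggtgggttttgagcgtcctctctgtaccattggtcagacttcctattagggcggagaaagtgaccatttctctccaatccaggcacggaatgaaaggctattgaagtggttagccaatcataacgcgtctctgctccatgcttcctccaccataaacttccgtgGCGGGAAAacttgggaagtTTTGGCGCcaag
Mcm5: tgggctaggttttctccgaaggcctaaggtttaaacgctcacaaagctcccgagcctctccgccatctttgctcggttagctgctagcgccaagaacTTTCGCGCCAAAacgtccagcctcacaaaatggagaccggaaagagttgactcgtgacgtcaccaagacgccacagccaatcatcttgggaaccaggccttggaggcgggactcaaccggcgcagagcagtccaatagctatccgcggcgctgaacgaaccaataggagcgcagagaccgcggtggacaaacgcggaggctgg
Mcm6: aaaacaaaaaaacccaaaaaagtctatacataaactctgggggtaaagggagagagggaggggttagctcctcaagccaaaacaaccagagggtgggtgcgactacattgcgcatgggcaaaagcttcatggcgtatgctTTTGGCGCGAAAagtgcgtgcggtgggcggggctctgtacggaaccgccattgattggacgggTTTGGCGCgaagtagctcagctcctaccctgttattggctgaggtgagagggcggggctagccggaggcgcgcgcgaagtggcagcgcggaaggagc
Mcm7: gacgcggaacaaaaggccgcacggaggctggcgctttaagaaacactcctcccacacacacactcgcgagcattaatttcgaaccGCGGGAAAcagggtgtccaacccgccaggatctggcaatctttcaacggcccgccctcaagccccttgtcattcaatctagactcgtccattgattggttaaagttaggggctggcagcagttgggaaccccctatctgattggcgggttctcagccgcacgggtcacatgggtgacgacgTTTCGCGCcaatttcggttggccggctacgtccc
Orc3: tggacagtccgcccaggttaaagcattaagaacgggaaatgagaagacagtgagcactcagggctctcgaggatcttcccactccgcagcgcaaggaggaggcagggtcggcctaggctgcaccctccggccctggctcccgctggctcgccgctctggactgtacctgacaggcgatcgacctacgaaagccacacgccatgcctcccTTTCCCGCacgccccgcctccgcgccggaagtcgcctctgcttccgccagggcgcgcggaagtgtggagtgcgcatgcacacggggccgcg
Rfc3: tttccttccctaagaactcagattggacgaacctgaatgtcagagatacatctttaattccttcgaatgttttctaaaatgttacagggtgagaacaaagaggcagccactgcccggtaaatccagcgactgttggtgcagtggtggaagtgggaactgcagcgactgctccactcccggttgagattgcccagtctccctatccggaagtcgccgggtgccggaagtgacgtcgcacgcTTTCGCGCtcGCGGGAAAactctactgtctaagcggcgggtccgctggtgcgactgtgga
In Mcm5 and Mcm6 the capital run of 12 letters holds TTTCGCGC and TTTGGCGC on opposite strands, sharing 4 letters. A second Mcm7 promoter in the table held no motif.

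All values are on the log2 scale of RMA, the usual summary of Affymetrix probes. Between arrays, correlations ranged from 0.988 to 0.997, and control replicate 3 reached at most 0.991 with any other array. On control replicate 3 the probe set at the 3′ end of Gapdh exceeded that at the 5′ end by 2.13 log2, against 0.69 to 0.73 on the Hlxb9 siRNA arrays and 0.65 and 0.78 on the other control arrays. The larger differences that depend on this array are given with and without it, and small ones often moved by more than 1.5 times. Ins2, which encodes insulin, read 13.79 to 13.83 after Hlxb9 siRNA and 13.83 to 13.87 after control siRNA, near the top of all probe sets. Mnx1 itself, on its single probe set, read 7.53, 7.41 and 7.28 after Hlxb9 siRNA and 7.82, 7.50 and 7.77 after control siRNA. Its difference of -0.29 ± 0.13 log2 (SE) had a limma adjusted p of 0.659. An exact permutation test, two-sided, gave p = 0.2, where the smallest possible was 0.1, and the groups overlapped.

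No member passed the test, and all members were brighter than most probe sets, though no detection call was made. Each of the 45 was brighter than at least 59.9% of probe sets. Limma at an adjusted p of 0.05 called 0 members, and 0% of all probe sets (smallest member adjusted p = 0.645). At an unadjusted p under 0.05 there were 2 members, Mcm4 lower and Orc3 higher, or 4.44%, against 7.95% of all genes and 8.35% of genes at least as bright as the dimmest member. Leaving out any Hlxb9 siRNA array, or control replicate 1, left 1 member at that p (2.22%, against 3.74% to 9.52% of all genes). Without control replicate 2 there were 4 (8.89%, against 6.48% of all genes), and without control replicate 3 there were 3 (6.67%, against 10.2%). With an offset of 32 added to the linear signal there were 10 (22.2%, against 10.9% of all genes and 15.7% of the bright ones), so whether members lie above or below the background depends on the setting. With arrays weighted by their quality 0 members passed the adjusted threshold, where 2.5% of all genes did. The differences ran from -0.48 to 0.32 log2, with a median of 0.028. The mean after Hlxb9 siRNA was higher for 28 members (62.2%) and lower for 17. Higher means were found for 50.6% of all genes and 58.8% of genes at least as bright as the dimmest member. The median over all genes was 0.0023, and over the 10053 genes of that brightness it was 0.037. The split depends on scaling: after centring each array on its median it was 18 higher and 27 lower, with a member median of -0.024 and a median over all genes of -0.050. Each RNA sample holds many cells, so a change in the share of cells in S phase cannot be told apart from one in transcript per cell.

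The intervals show how large a change these arrays leave room for. On the brightest probe set, the 95% interval of the difference lay within 1.5-fold in either direction (0.585 log2) for 42 of the 45 members (93.3%). This compares with 77.4% of all genes, and the interval lay within 2-fold for all 45 members. The exceptions to the first limit were Mcm3, Mcm4 and Rfc3. Standard errors ranged from 0.093 to 0.23 log2, with a median of 0.11, against 0.13 over all genes. Other probe sets of the members are not covered by these intervals. Among those, the widest errors were those of Rfc3, at 0.76 ± 0.40, and Rpa2, at 0.77 ± 0.38. Without control replicate 3 these differences were 0.23 and 0.27.

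**Figure D1:**
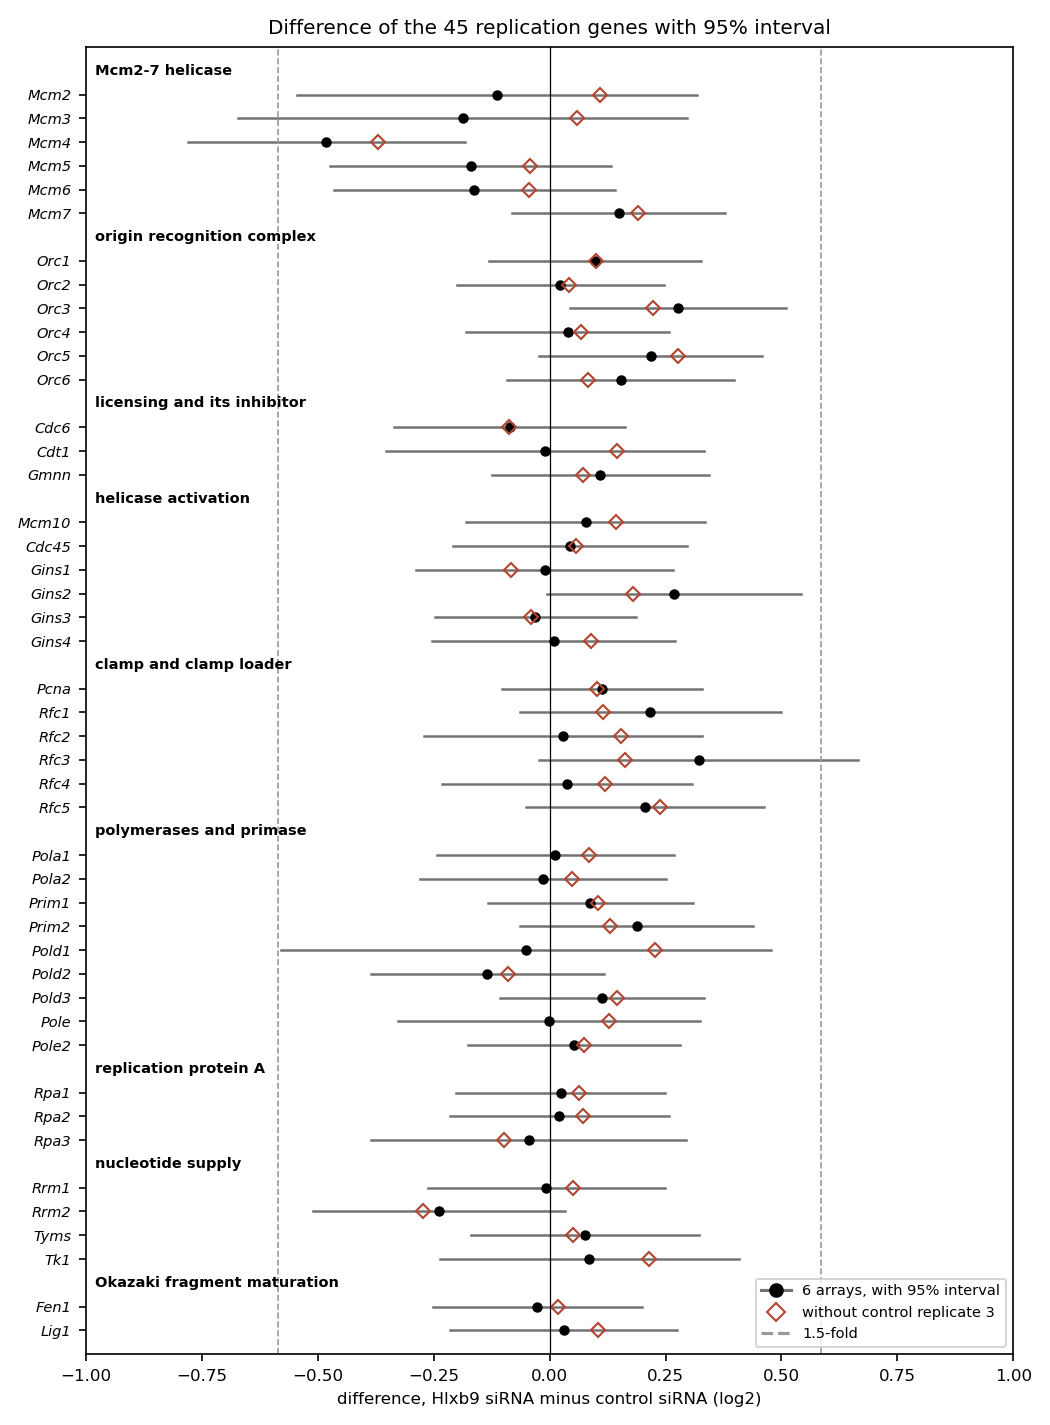
Difference between Hlxb9 siRNA and control siRNA (log2, horizontal axis) for each of the 45 replication genes, grouped by role, with limma's 95% interval; open diamonds leave out control replicate 3 and dashed lines mark 1.5-fold. All points lie between -0.48 and 0.32, and only the intervals of Mcm4 and Orc3 exclude 0.

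The spread between arrays came mainly from control replicate 3. Relative to each gene's mean over the 6 arrays, member deviations had an SD of 0.12, 0.084 and 0.084 log2 on Hlxb9 siRNA arrays 1 to 3, and 0.12, 0.074 and 0.23 on control arrays 1 to 3. Control replicate 3 was the highest of the 6 arrays for 20 members (44.4%) and the lowest for 9 (20%). The shares were 35.6% and 22.2% of all genes, and 32.5% and 31.5% of genes at least as bright as the dimmest member. It exceeded the mean of the other controls by more than 0.3 log2 for 10 members and fell short of it by more than 0.3 for 2. Without it, 36 members were higher (80%, against 56.7% of all genes and 61.5% of the bright ones) and 9 lower. Their median was then 0.084 log2, against 0.027 over all genes and 0.046 over the bright ones, and the 8 members that changed sign all went from lower to higher. The part of RNA integrity in this was not tested.

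**Figure D2:**
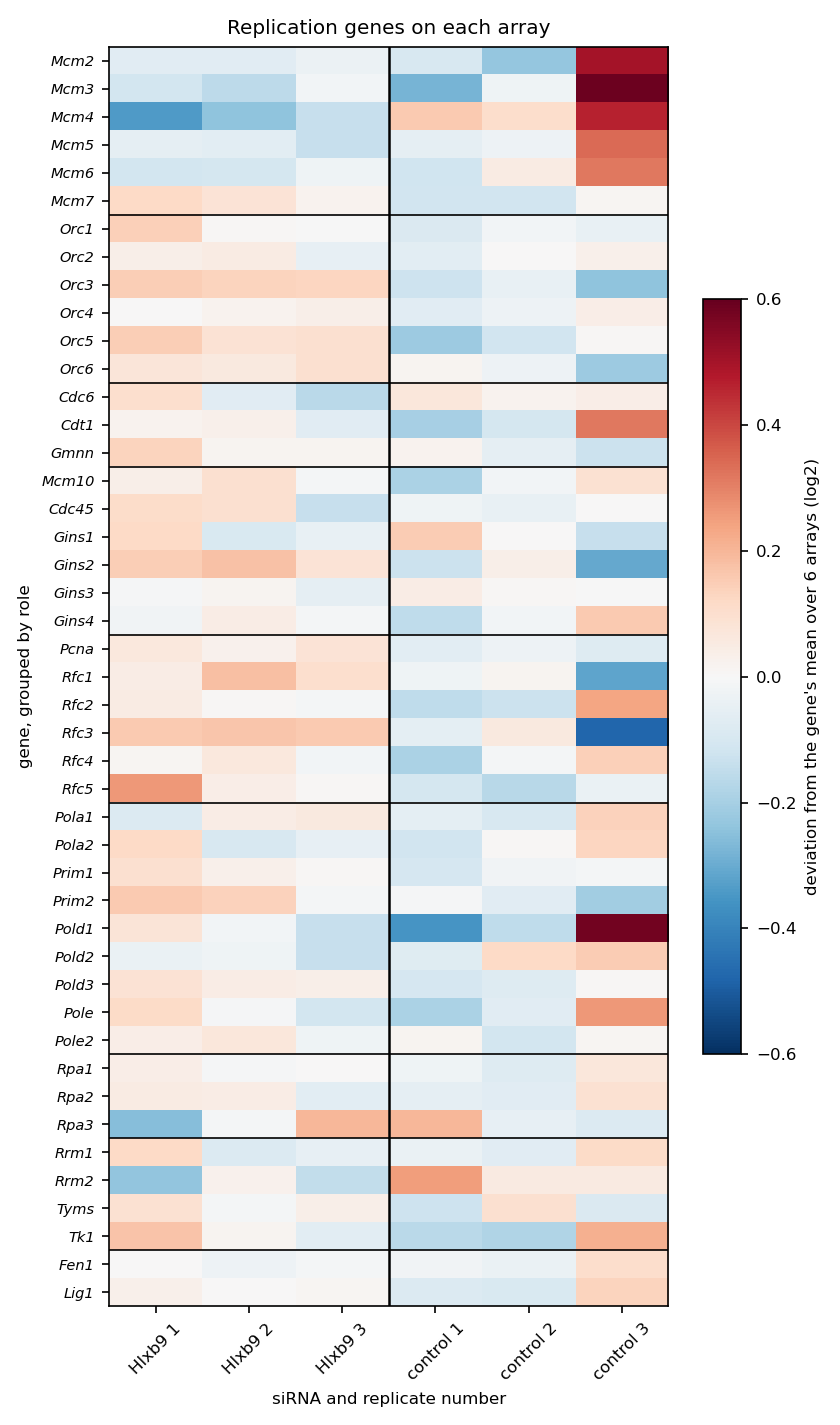
Deviation of each member from its own mean over 6 arrays (log2, colour from blue for low to red for high, scale -0.6 to 0.6), with Hlxb9 siRNA arrays in the left columns and control siRNA arrays in the right ones, and genes in rows by role. Control replicate 3 holds the deepest colours, red for Mcm2, Mcm3 and Pold1 and blue for Rfc3.

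In 12 members every Hlxb9 siRNA array lay above every control array (26.7%), and in 3 every one lay below (6.67%). The same held for 9.55% of all genes above and 7.75% below, and for 13.7% and 7.59% of genes at least as bright as the dimmest member. The share below is near that of all genes, and the share above is larger than either background. Those above were Mcm7, Orc1, Orc3, Orc5, Orc6, Gins2, Pcna, Rfc1, Rfc3, Rfc5, Prim1 and Pold3, and those below were Mcm4, Mcm5 and Rrm2. Their gaps were often small: Mcm5 read 11.05, 11.04 and 10.97 after Hlxb9 siRNA and 11.05, 11.08 and 11.44 after control siRNA. Within the pairs of equal replicate number, 14 members (31.1%) were higher in all 3 pairs, against 19% of all genes and 24.9% of the bright ones. In 3 members (6.67%) all 3 pairs were lower, against 16.5% and 13.5%.

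The Mcm2-7 genes encode the ring-shaped helicase that unwinds DNA at the fork. Of the 6, 1 was higher and 5 lower after Hlxb9 siRNA (median -0.17 log2), and none passed the test. This lean came with control replicate 3, which was the highest array for 5 of them: without it 3 were higher and 3 lower (median 0.0086). Mcm4 had the smallest p of all members. It read 10.57, 10.67 and 10.77 on Hlxb9 siRNA arrays 1 to 3 and 11.06, 11.01 and 11.37 on control arrays 1 to 3. Every Hlxb9 siRNA array was below every control, and the difference of -0.48 ± 0.13 log2 (SE), a level 28.4% lower, had an unadjusted p of 0.00605 and a limma adjusted p of 0.645. Without control replicate 3 the difference was -0.37. The value belongs to a probe set with the suffix _x_at, given to sets whose probes may also match other transcripts, and the plain probe set of Mcm4 differed by -0.097 ± 0.11, or -0.031 without control replicate 3. That second probe set was about as bright, with a mean of 10.85, so the transcript has a pair of readings that differ in size.

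Mcm2 read 11.24, 11.24 and 11.27 after Hlxb9 siRNA and 11.21, 11.07 and 11.80 after control siRNA. Mcm3 read 10.86, 10.82 and 10.95 after Hlxb9 siRNA and 10.69, 10.94 and 11.56 after control siRNA. In both genes the last control array stood far above the rest. The difference was -0.11 with it and 0.11 without it for Mcm2, and -0.19 with it and 0.060 without it for Mcm3. Mcm3 probe sets with means of 10.64 and 10.25 differed by -0.32 and -0.40, or -0.068 and -0.10 without that array. Its dimmer probe sets, with means of 9.69 and 6.80, differed by 0.076 and 0.18, or 0.12 and -0.10 without it. Mcm6 differed by -0.16 ± 0.13 and by -0.045 without that array, while its other bright probe set differed by 0.11 with it and 0.17 without it. Mcm7 was the exception of the ring, at 12.37, 12.33 and 12.27 after Hlxb9 siRNA and 12.13, 12.13 and 12.26 after control siRNA. Its groups did not overlap, the difference was 0.15 ± 0.10 (SE, limma adjusted p = 0.719), and its 3 other probe sets were also higher, by 0.042 to 0.13.

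The origin recognition complex marks origins through the cell cycle. Its 6 subunits had higher means after Hlxb9 siRNA, from 0.023 to 0.28 log2 with a median of 0.13, with none past the test, though under centring Orc2 and Orc4 were lower. When all probe sets of a gene were averaged, 5 were higher, and likewise 5 after repeated quantile normalization. Orc3 read 10.61, 10.60 and 10.59 after Hlxb9 siRNA and 10.34, 10.42 and 10.22 after control siRNA. Its Hlxb9 siRNA arrays were nearly identical and above all controls, with a difference of 0.28 ± 0.10 (SE), an unadjusted p of 0.026 and a limma adjusted p of 0.645, and 0.22 without control replicate 3. Both other probe sets of Orc3 were higher, by 0.055 and 0.22. Orc5 read 9.33, 9.27 and 9.28 after Hlxb9 siRNA and 8.97, 9.07 and 9.19 after control siRNA, again without overlap, a difference of 0.22 ± 0.10 (adjusted p = 0.666). Orc6 read 11.67, 11.66 and 11.70 after Hlxb9 siRNA and 11.62, 11.57 and 11.38 after control siRNA. Its gap to the nearest control was narrow, and the difference of 0.15 ± 0.11 was 0.083 without the third control. Orc1, the subunit whose level follows the cell cycle, differed by 0.097 ± 0.099, and Orc2 by 0.023 ± 0.096.

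Cdc6 and Cdt1 load the Mcm ring on origins, and geminin (Gmnn) blocks Cdt1 after S phase begins. Their differences were small. Cdc6 differed by -0.086 ± 0.11 log2 (SE), Cdt1 by -0.011 ± 0.15 and Gmnn by 0.11 ± 0.10. Cdt1 read 11.51, 11.52 and 11.42 after Hlxb9 siRNA and 11.29, 11.39 and 11.81 after control siRNA, so its groups overlapped because the last control was the highest array, and without it the difference was 0.15.

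Cdc45, Mcm10 and the 4 GINS subunits turn the loaded ring into an active helicase. Of these 6 genes 4 were higher and 2 lower, from -0.031 for Gins3 to 0.27 for Gins2, and after centring 2 were higher and 4 lower. The median was 0.027, or -0.026 after centring. Gins2 read 9.67, 9.69 and 9.60 after Hlxb9 siRNA and 9.39, 9.55 and 9.21 after control siRNA. The groups did not overlap, the difference was 0.27 ± 0.12 (SE, limma adjusted p = 0.659), and the second probe set differed by 0.39 ± 0.16. Without control replicate 3, the lowest array for Gins2, these differences were 0.18 and 0.24. Gins1 and Gins4, in the same 4-part complex, differed by -0.011 and 0.0085, or -0.084 and 0.088 without that array.

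Pcna is the sliding clamp that holds polymerases on DNA, and replication factor C, of 5 subunits, loads it. All 6 genes had higher means after Hlxb9 siRNA, from 0.028 to 0.32 log2 with a median of 0.16, with none past the test, though under centring Rfc2 and Rfc4 were lower. When all probe sets of a gene were averaged, 5 were higher and 1 lower (median 0.071), and on plain probe sets Rfc4 was lower. Rfc2 differed by 0.028 on its brightest probe set and by -0.21 on another that was nearly as bright, or 0.15 and -0.12 without control replicate 3. Rfc3 read 9.93, 9.94 and 9.93 after Hlxb9 siRNA and 9.71, 9.83 and 9.29 after control siRNA. Its difference of 0.32 ± 0.15 (SE, limma adjusted p = 0.664) drew much of its size from the last control, and was 0.16 without it. Its other probe set showed the same dependence, at 0.76 ± 0.40 with 6 arrays and 0.23 without control replicate 3. Rfc1, the largest subunit, read 11.35, 11.48 and 11.40 after Hlxb9 siRNA and 11.27, 11.32 and 10.99 after control siRNA. The difference was 0.22 ± 0.12, or 0.11 without the last control, and the other probe sets of Rfc1 differed by -0.058 and -0.073, or 0.022 and -0.18 without it. Rfc5 read 9.39, 9.17 and 9.14 after Hlxb9 siRNA and 9.03, 8.96 and 9.09 after control siRNA, a difference of 0.21 ± 0.11 that was 0.24 without the third control. Pcna read 13.05, 13.02 and 13.07 after Hlxb9 siRNA and 12.93, 12.96 and 12.91 after control siRNA. Its arrays separated by group with little spread, and the difference was 0.11 ± 0.093, a level 8.15% higher (adjusted p = 0.768).

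**Figure D3:**
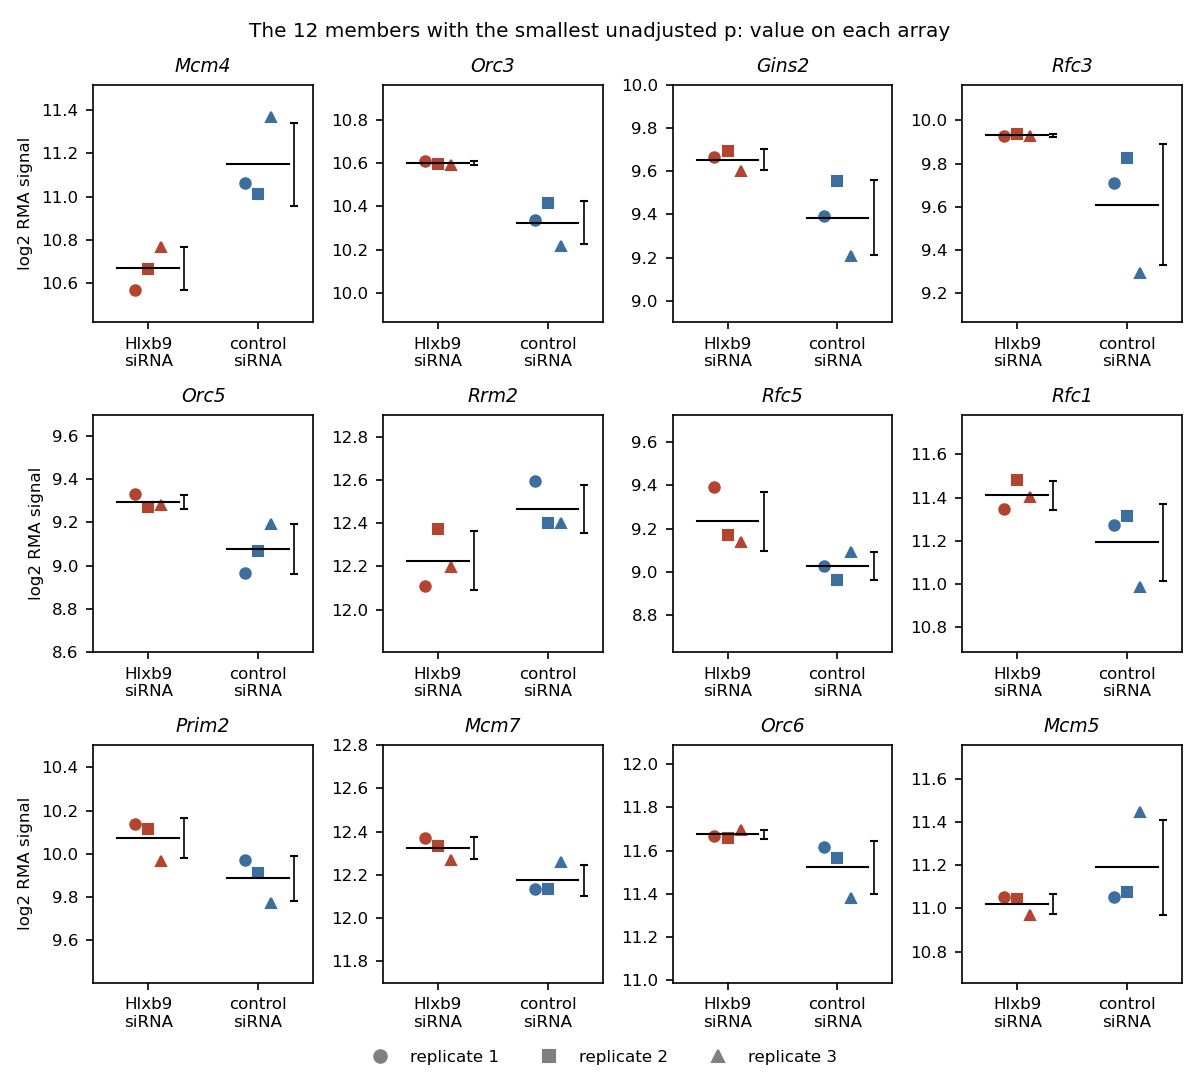
Log2 RMA signal on each array for the 12 members with the smallest unadjusted p, with Hlxb9 siRNA left and control siRNA right in each panel; symbols give the replicate number, lines the group means and bars the SD (n = 3). Each panel spans 1.1 log2; Prim2 is the gene whose groups overlap.

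Among the polymerases, the alpha complex with its primase starts strands, delta mainly copies the lagging strand and epsilon the leading strand. The 9 genes had no common direction, with 5 higher and 4 lower (median 0.013), 4 and 5 after centring, 8 and 1 without control replicate 3, and 2 and 7 when all probe sets of a gene were averaged. Prim2, the regulatory primase subunit, read 10.14, 10.12 and 9.97 after Hlxb9 siRNA and 9.97, 9.91 and 9.77 after control siRNA. All 3 pairs were higher, the difference was 0.19 ± 0.11 (SE, limma adjusted p = 0.69), and a second probe set of similar brightness differed by -0.22 ± 0.11. Prim1, the catalytic primase, differed by 0.088 ± 0.096, and Pold3, a polymerase delta subunit, by 0.11 ± 0.095, both without overlap of the groups. Pold1, the catalytic subunit of polymerase delta, read 10.98, 10.89 and 10.77 after Hlxb9 siRNA and 10.55, 10.75 and 11.49 after control siRNA. It had the widest control spread of the 45, with an SD of 0.49, and its difference was -0.050 ± 0.23, or 0.23 without the last control. The catalytic subunit of epsilon, Pole, differed by -0.0012 with 6 arrays and by 0.13 without the last control. Its groups overlapped without that array too, with control replicate 2 at 10.32 and Hlxb9 siRNA replicate 3 at 10.28. Pold2 differed by -0.13 ± 0.11, the lowest of the group.

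Replication protein A covers single-stranded DNA. Rpa1, Rpa2 and Rpa3 differed by 0.024, 0.021 and -0.045 log2, each with an SE between 0.097 and 0.15, and all 3 were lower after centring. Rpa3 had the widest spread among Hlxb9 siRNA arrays of any member, reading 9.86, 10.11 and 10.32, against 10.32, 10.07 and 10.03 on control arrays. A second probe set of Rpa2, named here after its value was seen, differed by 0.77 ± 0.38 with 6 arrays and by 0.27 without control replicate 3.

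Ribonucleotide reductase (Rrm1 and Rrm2), thymidylate synthase (Tyms) and thymidine kinase (Tk1) supply deoxynucleotides. Rrm2, the subunit made mainly in S phase, read 12.11, 12.37 and 12.20 after Hlxb9 siRNA and 12.60, 12.40 and 12.40 after control siRNA. All Hlxb9 siRNA arrays were below the controls, narrowly for replicate 2, and the difference was -0.24 ± 0.12 (SE, limma adjusted p = 0.667), or -0.27 without control replicate 3. Its probe set is of the _x_at kind, and its plain probe sets differed by -0.31 ± 0.11 and 0.0071 ± 0.16, or -0.34 and -0.13 without that array. Rrm1 differed by -0.0071 ± 0.11 on its brightest probe set and by 0.35 ± 0.26 on another, where control replicate 3 was far below the rest. Without that array these were 0.050 and 0.012. Tyms differed by 0.076 ± 0.11 and Tk1 by 0.086 ± 0.14, or 0.21 without control replicate 3. The differences of the joining enzymes were small. Fen1, which trims Okazaki fragments, differed by -0.026 ± 0.097 and Lig1, which seals them, by 0.030 ± 0.11, with Lig1 at -0.022 after centring.

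Where a member has several probe sets, they often did not point the same way. This was so for 18 of the 33 such members (54.5%), against 59.3% of the 9010 genes with several. Of the 55 other probe sets of members, 32 had the sign of the brightest. An unadjusted limma p under 0.05 was found for 3 of the 55, against 3430 of all 45037 probe sets. They were those of Gins2, Pola2 and Rrm2, and that of Pola2 was dim, with a mean log2 signal of 3.68. An opposite difference of 0.3 log2 or more occurred for 3 members. These probe sets stood at -0.41 ± 0.22 for Orc4, -0.31 ± 0.15 for Rfc2 and 0.35 ± 0.26 for Rrm1. The brightest stood at 0.039, 0.028 and -0.0071. Mean log2 signals of the opposite probe sets were 6.73, 9.36 and 8.12, so only that of Orc4 was under 7. All 3 depend on control replicate 3: without it they stood at -0.17, -0.16 and 0.012, none of which reaches 0.3. The 6 members read on _x_at probe sets (Mcm4, Mcm5, Mcm6, Pold1, Rrm2 and Fen1) were all lower (median -0.17, and -0.044 without control replicate 3). Over the 710 genes on such probe sets the medians were -0.065 and -0.0055.

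**Figure D4:**
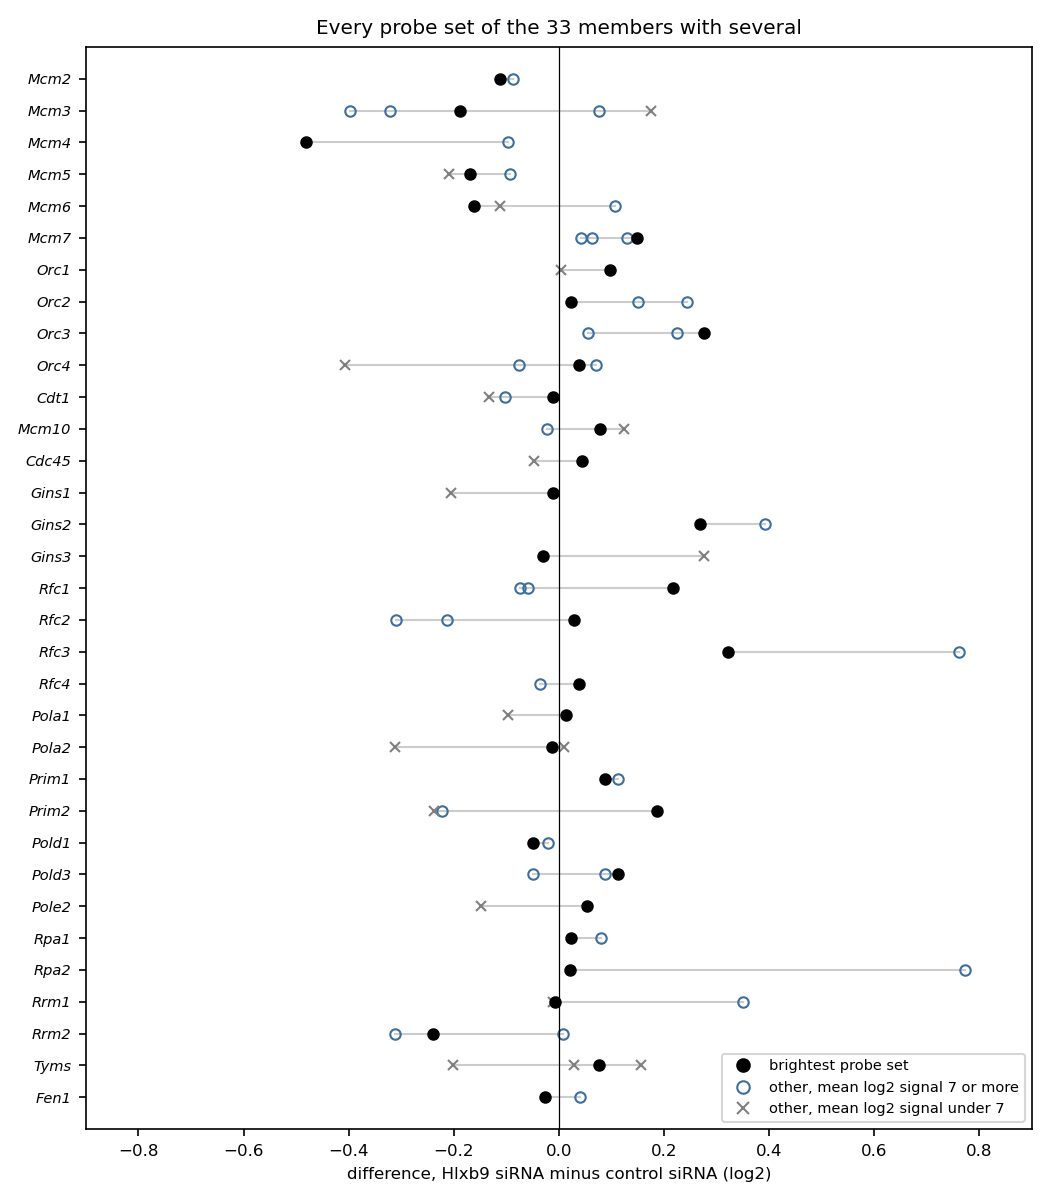
Difference between Hlxb9 siRNA and control siRNA (log2, horizontal axis) for every probe set of the 33 members with several; filled points are the brightest probe set, open circles other probe sets with a mean log2 signal of 7 or more, and crosses dimmer ones. The probe sets of Rfc3 and Rpa2 reach 0.76 and 0.77, and those of Mcm4 stand at -0.48 and -0.097.

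Promoter motifs and differences were set side by side. The 15 members with an E2F motif had differences from -0.19 to 0.32 log2, 8 higher and 7 lower (median 0.013). The 22 with a promoter in the table and no motif ran from -0.24 to 0.22, 15 higher and 7 lower (median 0.039). Without control replicate 3 the medians were 0.10 and 0.070, so the order of the medians depends on that array. The 8 members with no promoter in the table, Mcm4 among them, are outside this comparison. They ran from -0.48 to 0.27, 5 higher and 3 lower (median 0.018).

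Other genes of the replication pathway also had no call. Of 47 listed genes 45 were measured, 21 higher and 24 lower (median -0.032 log2, and 0.0070 without control replicate 3). None passed limma's threshold, and 1 higher and 2 lower had an unadjusted p under 0.05 (background 4.21% higher and 3.74% lower). Ccne2, cyclin E2 of S phase entry, read 8.89, 9.09 and 9.11 after Hlxb9 siRNA and 9.45, 9.36 and 9.51 after control siRNA. The groups did not overlap, and the difference of -0.41 ± 0.11 (SE, limma adjusted p = 0.645) was -0.38 without control replicate 3. Dck, which salvages deoxynucleosides, read 10.18, 10.27 and 10.71 after Hlxb9 siRNA and 10.90, 10.79 and 11.05 after control siRNA, a difference of -0.53 ± 0.16 (adjusted p = 0.645). Pole4, a small subunit of polymerase epsilon, read 8.69, 8.59 and 8.67 after Hlxb9 siRNA and 8.26, 8.23 and 8.50 after control siRNA, a difference of 0.32 ± 0.11 (adjusted p = 0.645). In the whole list the groups did not overlap for 10 genes, 3 above (6.67%, against 9.55% of all genes) and 7 below (15.6%, against 7.75%). Pold4 of polymerase delta differed by 0.52 ± 0.23, or 0.23 without the third control, and Pole3 by 0.35 ± 0.18, or 0.16. Among S phase regulators E2f2 differed by 0.29 ± 0.17, or 0.087 without that array, and E2f8, a repressor of the E2F family, by -0.18 ± 0.11. Esco2, a cohesin acetyltransferase, differed by -0.27 ± 0.14, the maintenance methyltransferase Dnmt1 by -0.16 ± 0.10 and the chromatin assembly subunit Chaf1b by 0.12 ± 0.13, or 0.18 without control replicate 3. Samhd1, which degrades deoxynucleotides, differed by -0.19 ± 0.13 and Dut, which removes dUTP, by 0.12 ± 0.11. Without control replicate 3 these were -0.057 and 0.075.

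Most markers of other cells were dimmer than the median probe set, with Cd68, Col1a1 and Cela1 as the exceptions. Of 20 markers listed for fibroblasts, leukocytes, acinar and endothelial cells 18 were measured. The summed linear signal of the 5 leukocyte markers was 202.8 to 216.5 after Hlxb9 siRNA and 152 to 175.4 after control siRNA. Most of this sum was Cd68, a lysosomal protein, brighter than 66.2% of probe sets, at 7.41, 7.40 and 7.28 after Hlxb9 siRNA and 6.77, 7.06 and 6.66 after control siRNA (limma adjusted p = 0.645). Cd52, a leukocyte surface protein brighter than 31.2% of probe sets, also did not overlap, though narrowly. It read 3.78, 4.04 and 3.74 after Hlxb9 siRNA and 3.54, 3.52 and 3.74 after control siRNA (limma adjusted p = 0.667). Lyz2 and Tyrobp, the remaining leukocyte markers, had lower means after Hlxb9 siRNA, with overlap of the groups. Their differences were -0.25 ± 0.18 and -0.14 ± 0.24 log2 (SE). Ptprc, the defining pan-leukocyte marker, was at 3.13 to 3.33 after Hlxb9 siRNA and 2.79 to 3.30 after control siRNA, dimmer than most probe sets. The sums for fibroblasts, acinar and endothelial cells overlapped between the groups. The part of such cells in the results was not tested.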

How the data were processed

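RNA of 6 MIN6 samples was hybridised to an Affymetrix mouse array. The deposited values are log2 signals. Per the submitters' processing notes, the authors used RMA and Partek, with no version stated. Array signal gives no read depth, and precision is limited by having 3 arrays per group. From the table, 64 array control probe sets were set aside. Symbols came from the platform annotation, in which 34945 of the remaining 45037 probe sets have 1 symbol and 932 have several, and were checked by Entrez identifier against a RefSeq table of GRCm38.p6 (0 changed).

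The groups were compared with limma 3.58.1 (R 4.3.3, statmod 1.5.0), without covariates, two-sided. Benjamini-Hochberg adjustment covered the 45037 probe sets, with a threshold of 0.05. The fit was tested on simulated data with equal, independent noise on all arrays. That setting does not cover an outlying array such as control replicate 3, or pairing of arrays. Group errors are SDs and errors of differences are moderated SEs. The labels describe independent transfections, and p-values measure the spread between these samples. The reported fit was unpaired. Deviations of arrays with equal replicate number correlated at 0.155, 0.165 and 0.202, and unequal numbers at 0.072 or less. On the basis of these values, arrays were treated as pairs only in the pair comparisons and the replicate block alternative. The labels state no pairing. At most 0.442% of values were identical between arrays.

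The members, lists and tests were chosen with earlier results of these data known. Named were Mnx1, the 12 members of smallest p, the highest and lowest member of each role, members with an opposite probe set of 0.3 log2 or more, and 3 genes per pathway role. Members given beyond this rule were named after their values were seen. Alternatives were a replicate block, centring, repeated quantile normalization, an offset of 32, a filter on dim probe sets, a trended robust prior, array weights, other readings of several probe sets, and leaving out each array.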

Additional observations from a re-analysis of the deposited data

How the results depend on the processing

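No member passed the threshold in any of the 15 alternatives. The nearest was Mcm4 with array weights (difference -0.36, limma adjusted p = 0.0519), whose weights ran from 0.204 for control replicate 3 to 4.46 for control replicate 2. With those weights 2.5% of all genes passed, among the named genes Pole4 alone (adjusted p = 0.044). The count of members at an unadjusted p under 0.05, 2 in the reported fit, was 10 with the offset (22.2%, against 10.9% of all genes), 5 with the trended robust prior (11.1%, against 8.59%), 7 with array weights (15.6%, against 24.6%) and from 1 to 4 when an array was left out (2.22% to 8.89%, against 3.74% to 10.2%). With the replicate block it was 2, with a smallest adjusted p of 0.482, and the block changed no call. The member median ranged from 0.0021 to 0.084 when an array was left out.

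Of 37 genes named by the rule and followed, 27 never changed sign. The rule takes members of smallest p and the extremes of each role, and members named beyond it are outside this count. Among those, Mcm2, Mcm3, Cdt1, Pold1 and Pole changed sign without control replicate 3. After centring, Orc2 stood at -0.030, Orc4 at -0.013, Rfc2 at -0.024, Rpa1 at -0.029 and Lig1 at -0.022, and after repeated quantile normalization Orc2 stood at -0.0051. With array weights Rpa3 stood at 0.0059, Rrm1 at 0.015 and Fen1 at 0.012. With the mean of probe sets Orc4 stood at -0.093, Gins3 at 0.12, Rfc2 at -0.16, Prim2 at -0.090, Rrm1 at 0.11 and Fen1 at 0.0073. Leaving out arrays gave -0.16 to 0.071 for Rpa3, -0.069 to 0.050 for Rrm1, -0.0043 to 0.053 for Orc2, -0.041 to 0.15 for Rfc2, -0.0089 to 0.10 for Lig1, -0.0087 to 0.063 for Rpa1 and -0.054 to 0.019 for Fen1. The cause was not tested. With plain probe sets, 41 members could be read, and Mcm4 stood at -0.097.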
